A study of Arabidopsis thaliana with 16 samples.

Results

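Seeds given abscisic acid (ABA) together with glucose (Glc) were compared with untreated control seeds of the Arabidopsis thaliana *sweet1* mutant, across all genes measured. The comparison holds 8 libraries, ABA + Glc replicates 1 to 4 and control replicates 1 to 4, of the 16 libraries of *sweet1* seed analysed in the series. They were chosen by their treatment labels alone. All 16 libraries came from whole germinating seed of *sweet1* in the Col-0 background, imbibed for 3 d at 4 °C, sown on half-strength MS and kept under constant light at 22 °C. At 24 h after imbibition the ABA + Glc seeds were moved to liquid half-strength MS with 5 µM ABA and 60 mM Glc, and at 30 h after imbibition, after 6 h of treatment, seeds were collected. The control seeds carried the same mutation, were moved at the same time to the same medium without either agent, and are labelled control. The other 8 libraries, 4 with 60 mM Glc and 4 with 5 µM ABA, are used below only where the double treatment is set against each single one. The mutant is a T-DNA insertion line in *SWEET1*, and no WT seed or further allele enters these values, so they describe this line only.

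ABA is the hormone that holds back germination. It binds receptors of the PYR/PYL family, the bound receptors block clade A protein phosphatases 2C, and SnRK2 kinases released from the phosphatases activate bZIP factors such as ABI5, which switch on genes for late embryogenesis abundant (LEA) proteins and other seed proteins. Glc is both a fuel and a signal in the seedling, sensed through hexokinase and the kinases SnRK1 and TOR, and it is known to delay germination when given from outside. A germinating seed otherwise takes down its maturation programme, loosens its cell walls and starts to build photosynthetic tissue.

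Each value is the level of a gene in 1 library under the header TPM, as deposited, and the test was limma on log2(TPM + 0.5). The level of the disrupted gene, *SWEET1* (AT1G21460), was 14.9, 11.5, 8.29 and 11.2 TPM in ABA + Glc replicates 1 to 4 and 11.1, 13.0, 13.3 and 10.8 TPM in control replicates 1 to 4. The groups overlapped, and the log2 fold change of -0.09 ± 0.15 (SE) did not pass (adjusted p = 0.727). Because a gene-level value does not place its reads relative to the T-DNA, it is no check of the genotype. The study detected no *SWEET1* transcript by RT-PCR in seeds of its T-DNA line, and the difference from these values was not tested. The 8 libraries summed to 1003493 to 1030227 in ABA + Glc and 975845 to 1012836 in the control rather than to 1000000, and the depth behind each value is unknown. The labels give 4 biological replicates per treatment without saying how the seed batches were separated, so the p-values measure the spread between these libraries.

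The 2 groups stood apart along the first principal component of 17582 genes, which held 56% of the variance, with scores of 26.19 to 37.66 in ABA + Glc libraries and -32.62 to -25.84 in control libraries. ABA + Glc replicate 3, which the study left out, stood apart from the others of its group on the second component (14.2%), at 35.11 against -15.9 to -10.88. Across genes, its log2 values correlated with those of the other ABA + Glc libraries at 0.9809 to 0.9825, whereas the other 3 correlated with each other at 0.9896 to 0.9907 and the controls at 0.9879 to 0.992. Among genes with at least 10 TPM, 92 of 10712 lay over 2-fold from the mean of the other 3 libraries in replicate 3, whereas each of the other ABA + Glc libraries had 17 to 26 such genes and each control library had 12 to 22. The counts over all genes are therefore also given without ABA + Glc replicate 3.

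**Figure D1:**
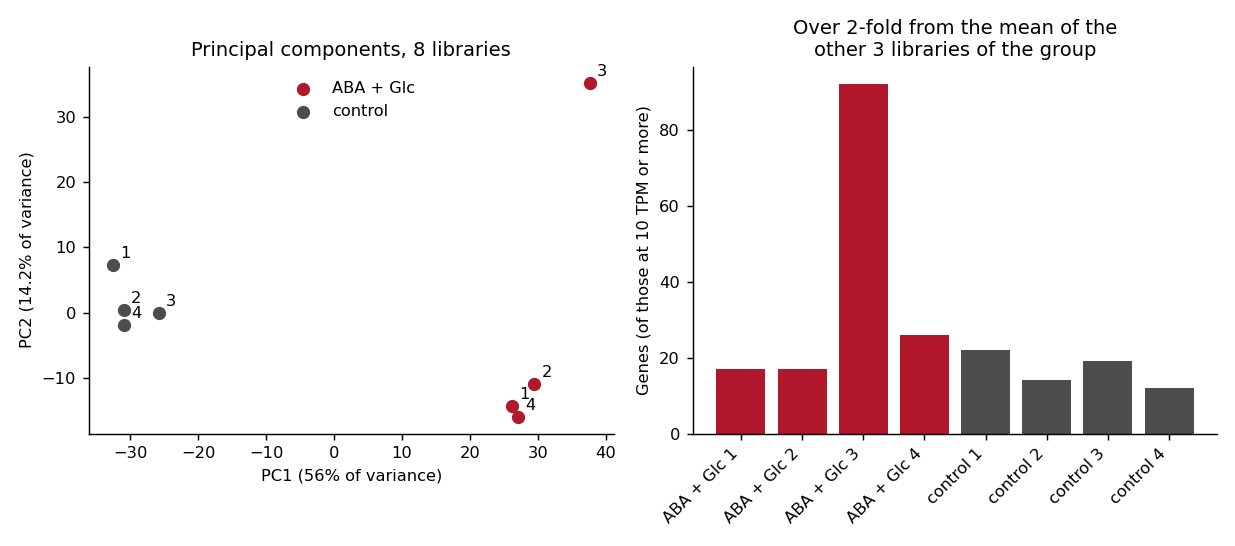
Left, the first and second principal components of log2(TPM + 0.5) for the 8 libraries, with replicate numbers beside the points. Right, the number of genes that lay over 2-fold from the mean of the other 3 libraries of their group: 92 for ABA + Glc replicate 3, 26 or fewer for any other library.

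Of the seed marker lists, the 4 storage genes were present in every library, and their summed level was 1827 to 2114 TPM in ABA + Glc libraries and 256 to 420 TPM in control libraries. The 3 endosperm genes *EPR1*, *MAN7* and *CYP707A2* summed to 207 to 459 TPM with ABA + Glc, the highest in replicate 3, and to 145 to 180 TPM in the control. Most of each sum was *EPR1*, which did not pass in limma, whereas *MAN7* and *CYP707A2* rose. The 4 seed coat genes summed to 10.2 to 13.5 TPM in ABA + Glc libraries and to 12.2 to 14.7 TPM in control libraries, and the 2 pollen genes to at most 0.06 TPM in any of the 8. In whole seed, fewer cells of a type and less RNA per cell cannot be told apart, and the part of tissue shares in the changes below was not tested.

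Across the genome, 1148 genes rose and 1568 fell with ABA + Glc of 17582 tested, which is 6.53% and 8.92% of the genes. A gene was called at an adjusted p under 0.05 if its change in either direction was 1.22-fold or more (0.289 on the log2 scale). Sizes were read on the log2(TPM + 0.5) scale, where the rises were the larger changes. Of the genes that rose, 314 did so by at least 2-fold, 133 by at least 4-fold and 57 by at least 8-fold, and of those that fell, 267, 27 and 0 reached these sizes. The 4 ABA + Glc libraries all lay above the 4 controls in 1095 of the 1148 genes and all below them in 1485 of the 1568, where 24.9% of all genes tested showed no overlap in one or the other direction. Without ABA + Glc replicate 3, 1147 genes rose (6.57% of 17456) and 1741 fell (9.97%), and these included 980 of the 1148 and 1426 of the 1568. The median log2 fold change over all genes tested was 0.00, and it is the level against which each gene list below is read. Counts of genes called in a list are likewise to be read beside the 6.53% risen and 8.92% fallen.

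**Figure D2:**
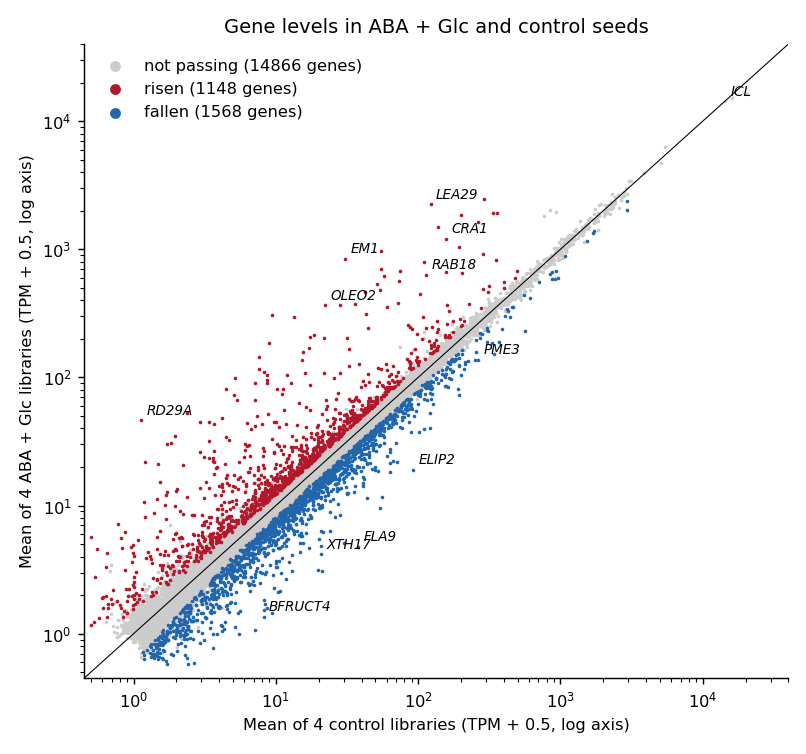
Mean level of each of the 17582 genes tested in the 4 ABA + Glc libraries (vertical) and the 4 control libraries (horizontal), in TPM + 0.5 on log axes, with the line of equal levels. The 1148 risen genes reach farther from the line than the 1568 fallen genes, and *ICL*, among the most abundant, lies on it.

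Genes for hydrophilic proteins of the dry seed stood among the largest rises. *RD29A* (AT5G52310), a hydrophilic protein of drought and cold, held 50.4, 49.2, 44.4 and 39.97 TPM in ABA + Glc libraries 1 to 4 and 0.90, 0.45, 0.79 and 0.35 TPM in the controls. It had the largest log2 fold change by the naming rule, 5.40 ± 0.16 (adjusted p = 9.35e-09), 42.1-fold on the log2(TPM + 0.5) scale. Its neighbour on chromosome 5, *LTI65* (AT5G52300), also known as RD29B, held 193, 199.8, 177 and 175 TPM with ABA + Glc against 9.36, 6.26, 10.07 and 8.14 TPM in the control, a log2 fold change of 4.40 ± 0.12. The 2 groups did not overlap for either gene, and the 4 libraries of each treatment lay close together. The group 1 LEA genes *EM1* (AT3G51810) and *EM6* (AT2G40170), which encode the Em proteins of the dry embryo, moved with them. *EM1* held 826, 829, 947 and 772 TPM with ABA + Glc and 31.6, 18.0, 47.1 and 24.5 TPM in the control, a log2 fold change of 4.86 ± 0.23 (adjusted p = 1.75e-07). *EM6* held 933, 942, 1112 and 894 TPM with ABA + Glc and 44.4, 36.2, 86.5 and 51.2 TPM in the control, a log2 fold change of 4.21 ± 0.21.

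*LEA29* (AT3G15670), another LEA gene, had the highest level among these 12 genes, 2112, 2326, 2454 and 2104 TPM in ABA + Glc libraries and 122, 88.0, 156 and 121 TPM in control libraries (log2 fold change 4.23 ± 0.14). Of the genes named by locus, *AT2G42560*, annotated as an LEA protein, held 320.2, 321, 329.6 and 261 TPM with ABA + Glc against 8.22, 4.77, 12.9 and 9.47 TPM in the control (log2 fold change 5.12 ± 0.23). A further LEA gene, *AT3G53040*, held 270.0, 273, 397 and 239.9 TPM with ABA + Glc and 15.1, 8.31, 17.5 and 11.04 TPM in the control (log2 fold change 4.48 ± 0.22). The dehydrin *AT4G39130* was at 29.0, 28.0, 37.0 and 25.9 TPM with ABA + Glc and 1.88, 0.21, 1.84 and 0.94 TPM in the control (log2 fold change 4.29 ± 0.33). *PV42B* (AT1G80090), which encodes a protein with CBS domains, had the narrowest spread of the set, with 51.4, 52.8, 49.4 and 54.6 TPM in ABA + Glc libraries and 1.64, 1.83, 2.0 and 2.04 TPM in controls (log2 fold change 4.47 ± 0.08). *AT5G01300*, annotated as a phosphatidylethanolamine-binding protein, was at 138, 155, 139.9 and 147 TPM with ABA + Glc and 7.71, 3.38, 10.3 and 6.97 TPM in the control, and *AT3G15280* at 91.5, 112, 108 and 83.0 TPM with ABA + Glc and 6.56, 3.40, 5.0 and 3.52 TPM in the control. These rose by 4.35 and 4.31 on the log2 scale.

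The remaining gene of the 12, *SMR5* (AT1G07500), an inhibitor of cyclin-dependent kinases known from DNA damage, varied most. It held 24.7, 35.5, 80.4 and 38.4 TPM in ABA + Glc libraries, and in control libraries it held 9.39 and 0.35 TPM in replicates 1 and 2 and was listed at 0 in replicates 3 and 4. Its log2 fold change of 5.09 ± 0.83 (adjusted p = 0.0016) rests on those low control values and on the pseudocount.

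**Figure D3:**
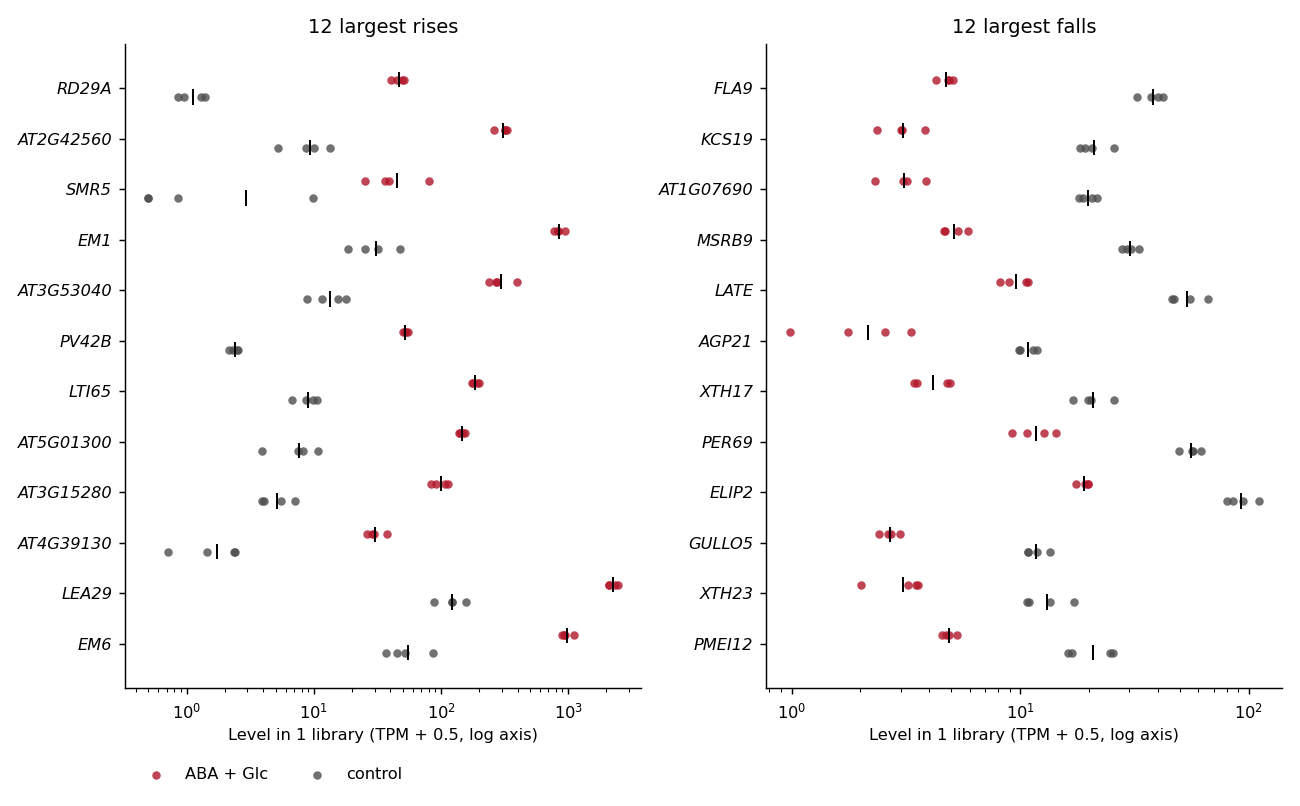
Level of the 12 genes with the largest rises (left) and the 12 with the largest falls (right) in each of the 4 ABA + Glc libraries (red, upper row of each gene) and the 4 control libraries (grey, lower row), in TPM + 0.5 on a log axis, with a bar at each mean. In all 24 genes the libraries of the 2 groups do not overlap, which the naming rule required.

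Promoters are shown for genes that carry these changes, because bZIP factors of ABA signalling are known to bind DNA with the core ACGTG, the ABA-responsive element. Each run holds the 250 bases before the gene's start in the RefSeq annotation of TAIR10.1, read 5′ to 3′ on the gene's strand, with ACGTG in capitals on either strand (CACGT is its reverse complement). *LTI65* held 4 copies, *EM1* 2, *RAB18* 3, and *RD29A* and the gene with the largest fall, *FLA9*, held 0 in this window. Sequence farther upstream or past the annotated start was not searched, so a 0 does not mean a promoter without ACGTG.
LTI65 (chr5:21236771-21237020, plus strand): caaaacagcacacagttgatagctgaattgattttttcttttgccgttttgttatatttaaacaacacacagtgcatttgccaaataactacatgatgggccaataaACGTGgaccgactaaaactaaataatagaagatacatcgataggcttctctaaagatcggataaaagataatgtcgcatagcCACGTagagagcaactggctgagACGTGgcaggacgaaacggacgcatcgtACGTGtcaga
RD29A (chr5:21240467-21240716, plus strand): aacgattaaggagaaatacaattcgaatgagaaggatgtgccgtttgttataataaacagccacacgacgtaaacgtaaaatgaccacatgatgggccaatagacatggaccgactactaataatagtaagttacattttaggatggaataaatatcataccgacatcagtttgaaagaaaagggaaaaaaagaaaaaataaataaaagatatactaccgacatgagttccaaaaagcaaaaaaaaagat
EM1 (chr3:19214472-19214721, plus strand): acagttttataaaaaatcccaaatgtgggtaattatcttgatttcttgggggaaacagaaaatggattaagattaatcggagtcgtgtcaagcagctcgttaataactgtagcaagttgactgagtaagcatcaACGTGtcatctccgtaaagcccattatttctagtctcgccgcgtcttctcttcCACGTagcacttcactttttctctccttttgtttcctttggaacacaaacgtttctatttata
RAB18 (chr5:26519448-26519697, minus strand): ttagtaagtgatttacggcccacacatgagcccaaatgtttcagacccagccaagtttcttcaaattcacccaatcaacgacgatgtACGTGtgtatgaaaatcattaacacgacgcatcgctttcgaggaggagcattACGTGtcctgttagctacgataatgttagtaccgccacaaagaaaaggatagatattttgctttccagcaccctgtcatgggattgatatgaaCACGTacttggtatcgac
FLA9 (chr1:983545-983794, minus strand): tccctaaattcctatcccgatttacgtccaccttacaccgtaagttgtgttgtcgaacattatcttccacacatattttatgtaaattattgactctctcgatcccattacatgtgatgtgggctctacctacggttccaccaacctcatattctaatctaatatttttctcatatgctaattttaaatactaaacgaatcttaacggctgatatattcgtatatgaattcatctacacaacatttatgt
The window of *RAB18* overlaps the annotated gene *AT5G66410*. Over all genes, 41.7% of 1145 windows of genes that rose, 26.0% of 1563 windows of genes that fell and 23.4% of 17421 windows of all genes tested held ACGTG on at least 1 strand. At least 2 copies stood in 311 of the windows of genes that rose, 149 of those of genes that fell and 1760 of all. The G-box CACGTG contains ACGTG on both strands, so 1 G-box counts as 2 copies. Every window with a G-box is therefore among those with at least 2 copies. The G-box stood in 246 of the windows of genes that rose (21.5%), 114 of those of genes that fell (7.3%) and 1359 of all (7.8%). These shares describe the letters in the windows, without a test, and a match is not a bound site.

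Among the largest falls stood genes of the growing cell wall. *FLA9* (AT1G03870), a fasciclin-like arabinogalactan protein of the cell surface, held 4.36, 3.79, 4.56 and 4.31 TPM in ABA + Glc libraries and 41.5, 31.8, 36.8 and 39.5 TPM in the controls, the largest fall of the set at -2.99 ± 0.10 on the log2 scale (adjusted p = 1.7e-08). A second arabinogalactan protein, *AGP21* (AT1G55330), held 2.82, 0.48, 2.06 and 1.27 TPM with ABA + Glc against 9.35, 9.43, 10.9 and 11.4 TPM in the control (log2 fold change -2.45 ± 0.31). Of the xyloglucan endotransglucosylases, which cut and rejoin wall xyloglucan, *XTH17* (AT1G65310) held 3.03, 4.28, 4.41 and 2.92 TPM with ABA + Glc and 25.3, 16.6, 19.9 and 19.3 TPM in the control (log2 fold change -2.32 ± 0.16). *XTH23* (AT4G25810) held 3.01, 2.73, 3.07 and 1.52 TPM with ABA + Glc against 16.6, 10.4, 10.2 and 13.0 TPM in the control (log2 fold change -2.09 ± 0.21). The pectin methylesterase inhibitor *PMEI12* (AT5G46960) was at 4.06, 4.37, 4.81 and 4.22 TPM with ABA + Glc and 24.8, 16.4, 15.7 and 24.2 TPM in the control (log2 fold change -2.07 ± 0.15). The class III peroxidase *PER69* (AT5G64100) was at 12.2, 13.8, 8.66 and 10.2 TPM with ABA + Glc and 61.0, 56.3, 48.7 and 55.8 TPM in the control (log2 fold change -2.27 ± 0.13).

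The other 6 falls were of mixed function. *KCS19* (AT5G04530), a 3-ketoacyl-CoA synthase of very-long-chain fatty acid elongation, held 2.53, 3.33, 1.86 and 2.51 TPM with ABA + Glc and 25.2, 17.7, 18.7 and 20.2 TPM in the control (log2 fold change -2.79 ± 0.15). *ELIP2* (AT4G14690), a chloroplast protein induced early by light, held 18.7, 19.3, 19.2 and 17.03 TPM with ABA + Glc against 110.2, 85.0, 79.7 and 93.5 TPM in the control (log2 fold change -2.27 ± 0.10). *MSRB9* (AT4G21850), a methionine sulfoxide reductase, averaged 4.64 ± 0.60 TPM with ABA + Glc and 29.8 ± 2.25 TPM in the control (SD, n = 4 each), and *GULLO5* (AT2G46740), annotated as an L-gulonolactone oxidase, 2.19 ± 0.23 TPM with ABA + Glc and 11.3 ± 1.27 TPM in the control. The zinc finger factor *LATE* (AT5G48890) averaged 9.11 ± 1.27 TPM with ABA + Glc and 53.1 ± 9.42 TPM in the control, and *AT1G07690* 2.61 ± 0.63 TPM with ABA + Glc and 19.3 ± 1.57 TPM in the control. Their log2 fold changes were -2.56, -2.13, -2.47 and -2.69. On the log2(TPM + 0.5) scale no fall reached 8-fold. Ratios of the plain TPM values are larger than on that scale, most of all at low levels, so this limit does not hold for them.

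Of 15 listed LEA genes other than dehydrins, 13 were tested and all 13 rose. Their median log2 fold change was 2.94, beside 0.00 for all genes. The list is a choice of genes made with earlier results of these data known. It leaves out LEA genes named above by locus, so it gives no share for the LEA family. After *EM1*, *LEA29* and *EM6* the largest rise of the list was that of *ECP63* (AT2G36640), at 579, 617, 739 and 525 TPM with ABA + Glc and 62.0, 43.4, 64.8 and 59.1 TPM in the control (log2 fold change 3.42 ± 0.13). Of 10 dehydrins, the hydrophilic proteins that accumulate in drying tissue, 6 rose and 2 fell, with a median of 1.38. *AT2G21490* held 641, 680.4, 877 and 626 TPM with ABA + Glc against 48.7, 36.1, 78.1 and 54.2 TPM in the control (log2 fold change 3.73 ± 0.20). *RAB18* (AT5G66400), a classical ABA marker, held 594, 630.0, 721 and 578 TPM in ABA + Glc libraries and 105.2, 69.7, 180.0 and 95.9 TPM in control libraries, of which replicate 3 was the highest (log2 fold change 2.56 ± 0.23, adjusted p = 2.03e-05). *XERO1* (AT3G50980) held 322, 349, 404 and 338 TPM with ABA + Glc against 63.8, 56.2, 66.0 and 55.3 TPM in the control. The members that fell were *AT4G38410* (-0.51 ± 0.12) and *ERD10* (AT1G20450) (-0.44 ± 0.14, adjusted p = 0.0489), and the fall of *ERD10* did not pass without any 1 of 6 of the libraries, where only 1 dehydrin fell. Those 6 were ABA + Glc replicates 1, 2 and 4 and control replicates 1, 3 and 4.

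Of the cold- and ABA-induced RD, KIN and COR genes 5 of 7 rose (median log2 fold change 2.45) and 0 fell. Beside *RD29A* and *LTI65*, *KIN1* (AT5G15960) held 25.2, 21.8, 21.6 and 17.5 TPM with ABA + Glc and 0.84, 0.55, 0.82 and 0.62 TPM in the control (log2 fold change 4.19 ± 0.13). *KIN1* lies beside a near-identical copy, *KIN2*, and reads may have been divided between them, so its value is uncertain. *COR413PM1* (AT2G15970), a membrane protein of cold acclimation, held 50.7, 45.01, 32.2 and 44.7 TPM with ABA + Glc against 9.18, 5.15, 8.34 and 7.37 TPM in the control (log2 fold change 2.45 ± 0.18).

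All 7 listed genes for oleosins and other oil body proteins, which coat the oil bodies of the seed, rose (median log2 fold change 2.41). *OLEO2* (AT5G40420) held 403, 380.0, 319.6 and 357 TPM with ABA + Glc and 17.9, 17.1, 31.4 and 20.8 TPM in the control (log2 fold change 4.07 ± 0.16), and *OLEO1* (AT4G25140) 473, 489, 492 and 399 TPM with ABA + Glc and 46.1, 31.2, 53.5 and 35.1 TPM in the control (3.49 ± 0.15). Of 9 seed storage protein genes 7 rose and 0 fell, with a median of 0.89. Without any 1 library between 5 and 8 rose. *CRA1* (AT5G44120), a 12S cruciferin, held 1234, 1333, 1001 and 1266 TPM in ABA + Glc libraries and 133, 141, 212 and 139 TPM in control libraries (log2 fold change 2.96 ± 0.14). *CRU3* (AT4G28520) held 214, 247, 302 and 189 TPM with ABA + Glc against 75.1, 81.6, 135 and 68.5 TPM in the control (log2 fold change 1.43 ± 0.20). Among the 2S albumins *AT2S3* (AT4G27160) held 224, 347, 369 and 163 TPM with ABA + Glc and 121, 129, 181 and 106 TPM in the control, so that ABA + Glc replicate 4 lay below control replicate 3 and the change of 0.99 ± 0.25 (adjusted p = 0.0188) did not pass without ABA + Glc replicate 2, control replicate 1 or control replicate 4. The 2S albumins are close copies in tandem and share sequence. In contrast, of 14 genes for lipid breakdown, the glyoxylate cycle and gluconeogenesis, which turn stored oil into sugar, 0 passed in limma, with 2 at an unadjusted p under 0.05 and a median of -0.08. *ICL* (AT3G21720), isocitrate lyase of the glyoxylate cycle, stood at 13835, 13991, 15060.5 and 14168 TPM in ABA + Glc libraries and 14689, 14064, 13497 and 15401 TPM in control libraries, and its log2 fold change was -0.01 ± 0.07 (adjusted p = 0.923).

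**Figure D4:**
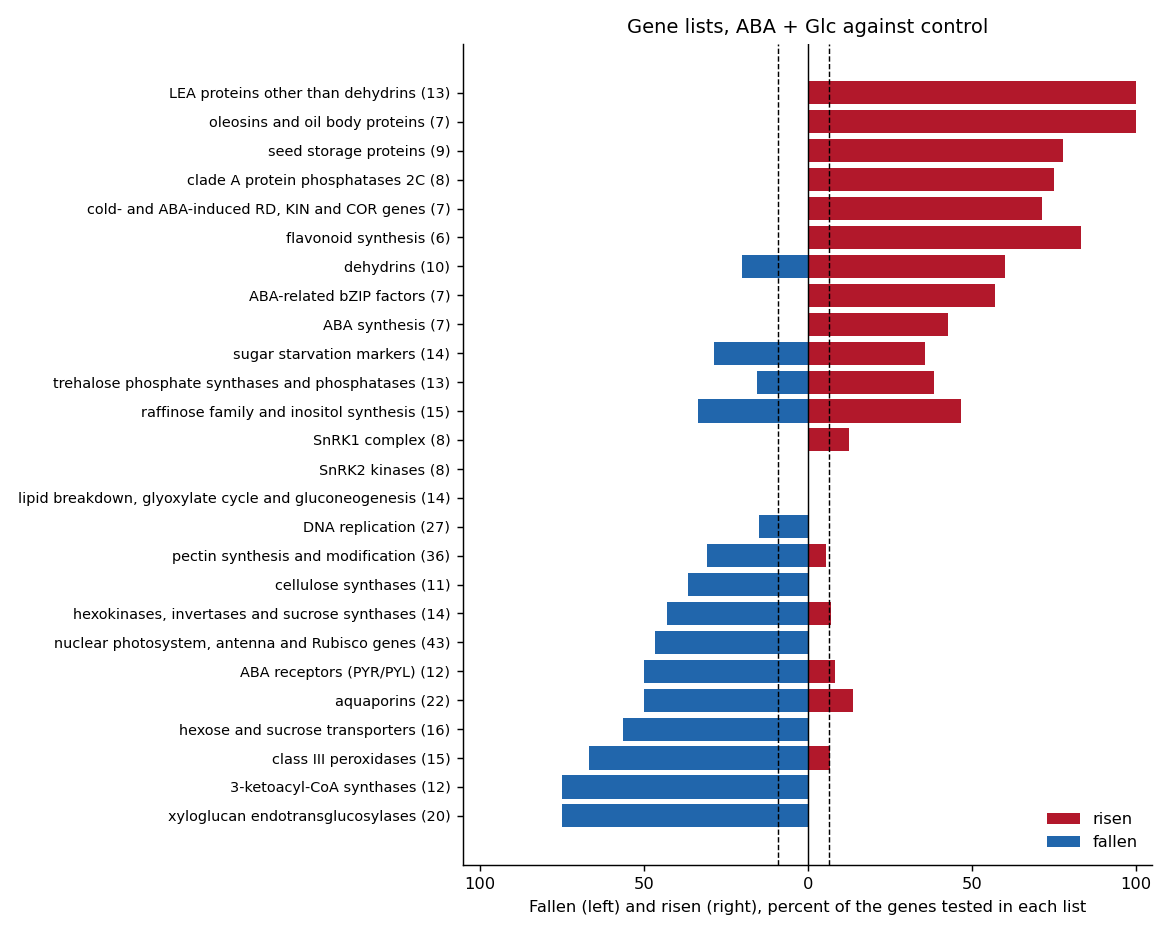
Share of the genes tested in 26 gene lists that rose (red, right) or fell (blue, left) with ABA + Glc against the control, with the number tested in brackets. Dashed lines mark the shares over all genes, 6.53% risen and 8.92% fallen. Every gene tested in the chosen LEA and oleosin lists rose. The 3-ketoacyl-CoA synthases and xyloglucan endotransglucosylases fell most often.

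Of 12 PYR/PYL receptor genes tested 1 rose and 6 fell, with a median log2 fold change of -0.29, and 4 or 5 fell without any 1 library other than ABA + Glc replicate 3. *PYL6* (AT2G40330) held 16.3, 17.1, 16.5 and 15.4 TPM with ABA + Glc and 44.8, 39.7, 36.2 and 41.6 TPM in the control (log2 fold change -1.29 ± 0.08), *PYL4* (AT2G38310) fell by 0.81 and *PYL5* (AT5G05440) by 0.67. The receptor gene that rose was *PYL13* (AT4G18620), at 19.0, 17.5, 17.5 and 17.6 TPM with ABA + Glc against 6.65, 4.74, 5.47 and 6.56 TPM in the control (log2 fold change 1.55 ± 0.11). Of 8 clade A phosphatase 2C genes, which restrain the pathway, 6 rose and 0 fell (median 0.87), whichever library was left out. *AHG1* (AT5G51760), a phosphatase of seeds, held 82.3, 88.2, 102 and 76.6 TPM with ABA + Glc and 17.4, 16.3, 19.5 and 14.6 TPM in the control (log2 fold change 2.33 ± 0.10). *HAI3* (AT2G29380) held 42.6, 44.7, 33.7 and 41.5 TPM with ABA + Glc against 10.8, 8.47, 10.6 and 10.2 TPM in the control (1.96 ± 0.11), and *HAI2* (AT1G07430) and *ABI2* (AT5G57050) rose by 1.69 and 0.996. Of the 8 SnRK2 kinase genes tested 0 passed in limma, with 3 at an unadjusted p under 0.05.

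Of 7 ABA-related bZIP genes 4 rose and 0 fell (median 0.44). *ABI5* (AT2G36270), the factor that keeps seeds arrested under ABA, held 117, 123, 154 and 112 TPM in ABA + Glc libraries and 43.8, 33.8, 40.3 and 33.8 TPM in control libraries (log2 fold change 1.72 ± 0.12, adjusted p = 2.53e-06). *EEL* (AT2G41070), which competes with ABI5 at Em promoters, held 14.4, 17.04, 17.1 and 13.9 TPM with ABA + Glc against 5.52, 7.55, 7.32 and 7.35 TPM in the control (log2 fold change 1.12 ± 0.11). *ABF4* (AT3G19290) held 10.2, 10.6, 11.1 and 9.90 TPM with ABA + Glc and 7.89, 5.95, 6.06 and 6.53 TPM in the control (0.63 ± 0.10). *ABF3* (AT4G34000) rose by 0.44 (adjusted p = 0.021), a call that was lost without ABA + Glc replicate 2 or 4 or control replicate 2, 3 or 4. All 3 G-box binding factor genes rose. *GBF3* (AT2G46270) held 24.9, 30.1, 37.8 and 25.9 TPM with ABA + Glc and 10.6, 10.2, 8.87 and 8.88 TPM in the control (log2 fold change 1.56 ± 0.13), *GBF2* (AT4G01120) rose by 0.79 and *GBF1* (AT4G36730) by 0.43. Of 3 maturation factor genes 2 rose, and without ABA + Glc replicate 3 the other one fell. *MFT* (AT1G18100), a regulator of seed dormancy, held 6.74, 8.55, 10.5 and 8.65 TPM with ABA + Glc against 2.41, 0.65, 2.84 and 0.51 TPM in the control (2.297 ± 0.36), and *ABI3* (AT3G24650), a B3 factor of seed maturation, 118, 127, 159 and 114 TPM with ABA + Glc against 89.0, 85.5, 84.8 and 87.2 TPM in the control (0.56 ± 0.09).

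Genes of ABA turnover rose on both sides. For synthesis 3 of 7 rose (median 0.36): *ZEP* (AT5G67030), zeaxanthin epoxidase, held 27.3, 28.1, 28.2 and 27.1 TPM with ABA + Glc and 11.8, 12.6, 12.1 and 13.7 TPM in the control (log2 fold change 1.11 ± 0.07), and the dioxygenase genes *NCED9* (AT1G78390) and *NCED5* (AT1G30100) rose by 0.92 and 0.87. The call for *NCED5*, at most 1.91 TPM in any of the 8 libraries, was lost without ABA + Glc replicate 1 or control replicate 1 or 2. For breakdown and conjugation 3 of 4 rose (median 0.54). *CYP707A2* (AT2G29090), an ABA 8′-hydroxylase, held 7.16, 8.95, 8.78 and 7.47 TPM with ABA + Glc against 4.12, 3.68, 3.30 and 3.52 TPM in the control (1.05 ± 0.11), and *CYP707A1* (AT4G19230) rose by 0.53.

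Of 13 genes for the synthesis and breakdown of gibberellin, which opposes ABA in germination, 1 rose and 2 fell (median 0.13). *GA3OX1* (AT1G15550), which makes the active hormone, held 6.94, 8.48, 9.11 and 8.08 TPM with ABA + Glc and 15.9, 14.4, 16.6 and 14.1 TPM in the control (log2 fold change -0.87 ± 0.10), and *GA3OX2* (AT1G80340) held 40.5, 38.8, 55.8 and 38.6 TPM with ABA + Glc and 72.0, 68.1, 69.3 and 68.9 TPM in the control (-0.69 ± 0.11). *GA20OX3* (AT5G07200) rose by 0.57. Without ABA + Glc replicate 1 a second gene of the list rose. Of 8 receptor and DELLA genes 1 rose and 2 fell. *RGL2* (AT3G03450), the DELLA repressor of germination, held 164, 165, 141 and 162 TPM with ABA + Glc against 123, 125, 128 and 129 TPM in the control, a rise of 0.32 ± 0.06 (adjusted p = 0.00413) that did not pass when the libraries were scaled to the same sum. Without ABA + Glc replicate 3, 2 genes of this list rose. Of 6 GASA peptide genes 2 rose and 2 fell, with 1 risen without any 1 of ABA + Glc replicates 1 and 2 and control replicates 1, 2 and 3, and 1 fallen without control replicate 1 or 4. *GASA3* (AT4G09600) held 29.6, 27.4, 25.8 and 20.9 TPM with ABA + Glc and 4.28, 1.59, 5.11 and 1.78 TPM in the control (2.96 ± 0.30), and *GASA1* (AT1G75750) 9.36, 8.75, 5.11 and 7.43 TPM with ABA + Glc and 18.7, 15.9, 17.6 and 16.8 TPM in the control (-1.15 ± 0.16).

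Cell wall genes fell more often than they rose. Of 20 xyloglucan endotransglucosylase genes 15 fell and 0 rose (median -0.69), and 14 fell without ABA + Glc replicate 3. Beside *XTH17* and *XTH23*, *XTH18* (AT4G30280) held 10.2, 12.5, 11.1 and 10.3 TPM with ABA + Glc and 53.1, 35.8, 40.2 and 44.4 TPM in the control (log2 fold change -1.92 ± 0.12), and *XTH33* (AT1G10550) 0.76, 1.02, 1.78 and 1.28 TPM with ABA + Glc and 7.86, 6.37, 9.88 and 7.55 TPM in the control (-2.32 ± 0.19). Of 36 pectin genes 11 fell and 2 rose (median -0.20), and 13 fell without ABA + Glc replicate 3. *PME3* (AT3G14310), a pectin methylesterase, held 141, 140.1, 129 and 137 TPM with ABA + Glc against 269.6, 261, 259.8 and 258 TPM in the control (log2 fold change -0.94 ± 0.05), and *PME41* (AT4G02330) fell by 1.43. *PME31* (AT3G29090) (0.33) and *PME32* (AT3G43270) (0.57) rose. Neither passed without control replicate 4, and *PME32* also did not pass without ABA + Glc replicate 1, 2 or 3 or control replicate 1 or 2. Of 11 cellulose genes 4 fell and 0 rose, *CESA5* (AT5G09870) among them, which held 5.83, 6.29, 5.65 and 5.22 TPM with ABA + Glc and 8.04, 8.19, 7.68 and 7.86 TPM in the control (-0.44 ± 0.08).

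Of 13 fasciclin-like arabinogalactan protein genes 5 fell, 7 without ABA + Glc replicate 3, and *FLA19* (AT1G15190) rose. *FLA2* (AT4G12730) held 7.05, 5.40, 6.63 and 4.12 TPM with ABA + Glc and 22.6, 18.6, 19.2 and 20.8 TPM in the control (log2 fold change -1.75 ± 0.15), whereas *FLA19* held 4.58, 4.48, 5.48 and 6.49 TPM with ABA + Glc and 2.59, 2.77, 2.62 and 2.07 TPM in the control (0.93 ± 0.14). Of 12 3-ketoacyl-CoA synthase genes, which elongate fatty acids for wax and other surface lipids, 9 fell and 0 rose (median -0.84), whichever library was left out. *KCS20* (AT5G43760) held 6.73, 8.35, 9.54 and 7.25 TPM with ABA + Glc against 31.6, 25.5, 25.5 and 29.1 TPM in the control (-1.75 ± 0.11). Of 15 class III peroxidase genes 10 fell and 1 rose (median -0.60). *PER62* (AT5G39580) held 17.9, 17, 15.9 and 20.7 TPM with ABA + Glc and 74.7, 57.7, 54.4 and 63.0 TPM in the control (-1.77 ± 0.11), and *PER52* (AT5G05340) rose by 1.003. Of 9 lipid transfer protein genes 3 fell and 0 rose, *LTPG2* (AT3G43720) by 1.26.

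Expansins, which loosen walls without cutting them, were split, with 2 risen and 3 fallen of 13 (median -0.12). *EXPA8* (AT2G40610) held 215, 229.6, 267 and 219.9 TPM in ABA + Glc libraries and 331, 291, 287 and 307 TPM in control libraries (log2 fold change -0.39 ± 0.08). *EXPA15* (AT2G03090) held 103, 109, 100.2 and 98.2 TPM with ABA + Glc against 72.7, 62.3, 68.7 and 74.1 TPM in the control and rose by 0.56. Of 4 endo-beta-mannanase and polygalacturonase genes 2 rose. *MAN7* (AT5G66460), a mannanase that weakens the endosperm, held 51.4, 57.1, 61.4 and 50.1 TPM with ABA + Glc and 18.9, 15.8, 15.3 and 17.6 TPM in the control (log2 fold change 1.67 ± 0.09). The rise of *ADPG2* (AT2G41850), 0.31 ± 0.09, lay close to the minimum fold and did not pass without ABA + Glc replicate 1, 3 or 4 or control replicate 2 or 3.

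Sugar transporters fell where they changed. Of 16 hexose and sucrose transporter genes 9 fell and 0 rose (median -0.45), and without ABA + Glc replicate 3, 1 rose. *STP4* (AT3G19930), a hexose/proton symporter, held 27.1, 29.4, 24.7 and 27.5 TPM with ABA + Glc and 68.8, 58.9, 58.1 and 64.6 TPM in the control (log2 fold change -1.19 ± 0.08, adjusted p = 1.66e-06). *STP1* (AT1G11260), another hexose symporter, held 12.5, 12.1, 8.51 and 10.05 TPM with ABA + Glc against 22.6, 24.4, 24.5 and 26.6 TPM in the control (-1.16 ± 0.12). The sucrose transporter *SUC1* (AT1G71880) held 114, 111, 82.0 and 108 TPM with ABA + Glc and 197, 206, 191 and 208 TPM in the control (-0.96 ± 0.10). Lower levels were also found for *STP14* (AT1G77210) (-0.72 ± 0.16), *STP13* (AT5G26340) (-0.46 ± 0.13, adjusted p = 0.0349) and the polyol transporter *PLT5* (AT3G18830) (-0.43 ± 0.06). The call for *STP13* was lost without ABA + Glc replicate 1 or 2 or control replicate 1, 3 or 4. *STP7* (AT4G02050) (-0.06 ± 0.10) and *PLT4* (AT2G20780) (-0.25 ± 0.09, adjusted p = 0.0751) did not pass.

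Among 14 hexokinase, invertase and sucrose synthase genes 6 fell and 1 rose (median -0.41). The vacuolar invertase *BFRUCT4* (AT1G12240) held 1.21, 0.78, 0.74 and 0.68 TPM with ABA + Glc and 8.85, 6.38, 7.88 and 7.70 TPM in the control, a log2 fold change of -2.61 ± 0.15. The sucrose synthase *SUS4* (AT3G43190) fell by 1.38, whereas *SUS3* (AT4G02280), the one that rose, held 31.4, 31.4, 20.5 and 26.7 TPM with ABA + Glc against 6.57, 7.87, 9.06 and 7.08 TPM in the control (1.77 ± 0.14). Of 13 trehalose phosphate synthase and phosphatase genes 5 rose and 2 fell, with 3 risen without ABA + Glc replicate 1, 2 or 4, and 1 fallen without control replicate 1. *TPS6* (AT1G68020) held 17.1, 16.4, 14.7 and 12.9 TPM with ABA + Glc and 7.46, 7.64, 8.39 and 9.0 TPM in the control (0.87 ± 0.10). *TPPI* (AT5G10100), a trehalose phosphatase named here because its level in ABA + Glc replicate 3 was seen to stand out, held 1155, 1483, 4197 and 1219 TPM with ABA + Glc against 511, 923, 1189 and 767 TPM in the control and did not pass (1.09 ± 0.39, adjusted p = 0.0794). Of 15 genes for inositol and the raffinose family, sugars of the dry seed, 7 rose and 5 fell. *GOLS2* (AT1G56600), a galactinol synthase, held 4.88, 4.63, 4.22 and 3.12 TPM with ABA + Glc against 0.17, 0.45, 0.67 and 0.57 TPM in the control (2.302 ± 0.20), and *MIOX2* (AT2G19800), an inositol oxygenase, held 41.8, 48.8, 56.4 and 47.2 TPM with ABA + Glc and 84.4, 75.0, 81.6 and 77.2 TPM in the control (-0.71 ± 0.09).

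The SnRK1 kinase complex, which signals low energy, showed 1 rise among 8 genes. *KIN10* (AT3G01090), its catalytic subunit, held 38.0, 39.0, 41.8 and 35.9 TPM in ABA + Glc libraries and 38.7, 37.8, 36.8 and 38.2 TPM in control libraries (log2 fold change 0.03 ± 0.06, adjusted p = 0.802). *KING1* (AT3G48530) held 105.2, 102, 79.6 and 108 TPM with ABA + Glc against 84.4, 92.0, 98.0 and 88.1 TPM in the control (0.11 ± 0.10, adjusted p = 0.452). AT1G69800, taken here as *KING2*, held 38.3, 38.1, 25.3 and 35.4 TPM with ABA + Glc and 19.6, 20.3, 22.3 and 20.6 TPM in the control and rose by 0.70 ± 0.12 (adjusted p = 0.00256). Of 14 sugar starvation markers 5 rose and 4 fell (median 0.09). *DRM1* (AT1G28330), a dormancy marker, held 194, 202, 195 and 202 TPM with ABA + Glc against 109, 113, 109.8 and 91.3 TPM in the control (0.91 ± 0.07). *DRM2* (AT2G33830) held 6.25, 6.50, 6.24 and 8.10 TPM with ABA + Glc and 2.01, 3.24, 5.74 and 3.42 TPM in the control (0.89 ± 0.23, adjusted p = 0.0211), and the asparagine synthetase gene *DIN6* (AT3G47340) held 1.69, 1.64, 1.13 and 1.05 TPM with ABA + Glc and 0.62, 0.64, 0.78 and 0.32 TPM in the control (0.79 ± 0.20, adjusted p = 0.0198). On the other side *BXL1* (AT5G49360), a beta-xylosidase, held 24.3, 19.6, 19.5 and 21.4 TPM with ABA + Glc and 85.9, 59.3, 52.5 and 84.8 TPM in the control (-1.69 ± 0.15), and *DIN10* (AT5G20250), a raffinose synthase, 253, 227, 214 and 231 TPM with ABA + Glc and 577, 564, 512 and 611 TPM in the control (-1.29 ± 0.07). The call for *DRM2* was lost without ABA + Glc replicate 4 or control replicate 2 or 4, and that for *DIN6* without ABA + Glc replicate 1 or 2 or control replicate 4. The count of markers that rose was 2 without ABA + Glc replicate 1 or control replicate 4, and 3 without ABA + Glc replicate 2 or 4 or control replicate 1 or 2.

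Of 43 nuclear genes for photosystems, antennae and Rubisco 20 fell and 0 rose in limma, with a median log2 fold change of -0.37. *RBCS-2B* (AT5G38420), a small subunit of Rubisco, held 18.9, 21.4, 22.6 and 15.7 TPM in ABA + Glc libraries and 43.5, 37.9, 40.1 and 40.9 TPM in control libraries (log2 fold change -1.04 ± 0.11), although close copies of this family share sequence. The antenna gene *LHCB3* (AT5G54270) held 6.0, 4.72, 3.17 and 5.98 TPM with ABA + Glc against 12.3, 11.2, 11.2 and 11.1 TPM in the control (-1.17 ± 0.17). Of 27 DNA replication genes 4 fell and 0 rose (median -0.17), with 14 at an unadjusted p under 0.05, and 1 to 3 fell without any 1 library. *PCNA* (AT1G07370), the sliding clamp of the polymerase, held 23.8, 22, 14.8 and 21.1 TPM with ABA + Glc and 31.5, 29.0, 36.2 and 28.2 TPM in the control (-0.61 ± 0.14, adjusted p = 0.011). Of 30 genes for D-type cyclins and inhibitors of the cell cycle *SMR5* alone passed, and without ABA + Glc replicate 1, 2 genes of this list fell, with 1 without ABA + Glc replicate 3 or control replicate 2.

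Of 22 aquaporin genes 11 fell and 3 rose (median -0.40). The vacuolar aquaporins of seed protein bodies, *TIP3-1* (AT1G73190) and *TIP3-2* (AT1G17810), rose: *TIP3-1* held 55.1, 62.6, 35.7 and 45.5 TPM with ABA + Glc and 6.14, 3.29, 13.0 and 4.91 TPM in the control (2.91 ± 0.33), and *TIP3-2* 23.0, 27.3, 22.3 and 22.8 TPM with ABA + Glc and 4.34, 3.55, 10.8 and 5.48 TPM in the control (2.01 ± 0.26). *NIP1-1* (AT4G19030) held 13.6, 13.2, 10.2 and 14.9 TPM with ABA + Glc against 29.9, 24.7, 26.2 and 28.8 TPM in the control (-1.06 ± 0.11). Of 6 flavonoid synthesis genes 5 rose and 0 fell (median 0.64). *CHI1* (AT3G55120), chalcone isomerase, held 14.4, 12.3, 12.7 and 14.4 TPM in ABA + Glc libraries and 5.79, 3.79, 5.07 and 3.87 TPM in control libraries (1.46 ± 0.13).

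Of 59 heat shock protein and factor genes 3 rose and 7 fell (median 0.07), near the shares over all genes, 6.53% risen and 8.92% fallen. *HSP15.4* (AT4G21870), a small heat shock protein, held 22.5, 21.6, 23.8 and 28.2 TPM with ABA + Glc and 53.7, 60.2, 62.4 and 62.9 TPM in the control (-1.30 ± 0.09). *HSP17.8* (AT1G07400) held 4.2, 3.47, 9.94 and 5.11 TPM with ABA + Glc against 2.56, 2.64, 2.80 and 2.02 TPM in the control, with the highest value in ABA + Glc replicate 3. Its rise of 0.94 ± 0.26 (adjusted p = 0.0276) was 0.66 (adjusted p = 0.0101) without that library, and it did not pass without ABA + Glc replicate 4 or any 1 control library. Without ABA + Glc replicate 4, 1 gene of the list rose.

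Among families of transcription factors, ethylene response factors showed 8 rises and 11 falls of 54 genes, where 6.53% of all genes rose and 8.92% fell. *DREB2G* (AT5G18450) held 50.9, 52.6, 58.5 and 42.0 TPM with ABA + Glc and 9.16, 7.70, 8.78 and 7.57 TPM in the control (log2 fold change 2.54 ± 0.11), and its relatives *DREB2E* (AT2G38340), *DREB2B* (AT3G11020) and *DREB2D* (AT1G75490), of a subfamily known from drought and heat, rose by 1.20, 0.88 and 0.60. NAC factors showed 7 rises and 10 falls of 55, with 5 or 6 falls without ABA + Glc replicate 1 or control replicate 1 or 2. *NAC032* (AT1G77450) held 33.7, 36.7, 27.5 and 37.3 TPM with ABA + Glc against 13.9, 13.8, 16.1 and 16.1 TPM in the control (1.14 ± 0.10). WRKY factors showed 1 rise and 8 falls of 34, with 5 falls without control replicate 1 or 4 and 2 rises without ABA + Glc replicate 3, and *WRKY18* (AT4G31800) held 31.3, 27.9, 46.5 and 28.6 TPM with ABA + Glc and 63.3, 55.2, 54.9 and 54.3 TPM in the control (-0.78 ± 0.14). MYB factors showed 1 rise and 7 falls of 38, with 4 falls without ABA + Glc replicate 4 or control replicate 1, 2 or 4, 0 rises without ABA + Glc replicate 1, 2 or 3 and 2 without control replicate 1. Homeodomain leucine zipper factors showed 2 rises and 4 falls of 32, near the shares over all genes. There were 2 falls without any 1 control library and 1 rise without control replicate 2, 3 or 4. *ATHB-7* (AT2G46680), which is known to respond to ABA and drought, held 4.05, 5.12, 7.32 and 5.51 TPM with ABA + Glc and 1.41, 1.46, 1.13 and 1.85 TPM in the control (1.60 ± 0.18).

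Of 35 Aux/IAA and auxin response factor genes 2 rose and 4 fell (2 without ABA + Glc replicate 4 or control replicate 4), near the shares over all genes. Of 6 SAUR genes 3 fell, and of 21 ethylene genes 3 rose and 6 fell. *SAUR77* (AT1G17345) held 2.49, 1.55, 3.19 and 2.68 TPM with ABA + Glc and 9.30, 10.3, 11.3 and 10.7 TPM in the control (-1.90 ± 0.16). Of 14 JAZ and jasmonate genes 3 fell, the lipoxygenase gene *LOX1* (AT1G55020) by 1.05. Of 13 genes induced by touch or wounding 7 fell and 0 rose (median -0.42), and *CML24* (AT5G37770), a calmodulin-like protein, held 18.1, 19.0, 29.2 and 21.7 TPM with ABA + Glc against 47.4, 41.6, 38.5 and 38.9 TPM in the control (-0.92 ± 0.14). Of 12 clock genes *PRR3* (AT5G60100) rose and *CCA1* (AT2G46830) and *LHY* (AT1G01060) fell, *CCA1* by 0.66, and of 9 autophagy ATG8 genes *ATG8D* (AT2G05630) rose and *ATG8E* (AT2G45170) fell. The falls of *LHY* (adjusted p = 0.0307) and *ATG8E* (adjusted p = 0.0351) each did not pass without any 1 of 5 libraries: for *LHY* these were ABA + Glc replicates 1 and 4 and control replicates 1, 2 and 4, and for *ATG8E* ABA + Glc replicates 1, 2 and 4 and control replicates 1 and 3. Without ABA + Glc replicate 4 or control replicate 3, 2 clock genes rose.

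Families of enzymes of secondary metabolism and detoxification moved both ways, where 6.53% of all genes rose and 8.92% fell. UDP-glycosyltransferases showed 11 rises and 15 falls of 68 genes, cytochromes P450 13 and 21 of 97, and glutathione S-transferases 4 and 7 of 33. *UGT72D1* (AT2G18570) held 38.3, 42.0, 51.0 and 37.6 TPM with ABA + Glc and 13.5, 13.7, 14.3 and 13.1 TPM in the control (1.59 ± 0.10), and *UGT71C1* (AT2G29750) 0.11, 0.25, 0.45 and 0.27 TPM with ABA + Glc and 3.35, 3.28, 3.02 and 2.74 TPM in the control (-2.24 ± 0.17). *CYP81F2* (AT5G57220), of indole glucosinolate synthesis, held 4.63, 5.26, 4.04 and 4.48 TPM with ABA + Glc against 17.2, 15.6, 13.4 and 13.9 TPM in the control (-1.60 ± 0.11). *CYP71A26* (AT3G48270) held 24.4, 26.9, 25.5 and 22.5 TPM with ABA + Glc and 9.92, 9.45, 11.98 and 11.2 TPM in the control (1.19 ± 0.09).

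Against ABA alone few genes passed for the double treatment, although 3161 of 17500 stood at an unadjusted p under 0.05 in limma. In a model of all 16 libraries 166 genes were higher and 374 lower with ABA + Glc than with ABA, 0.949% and 2.14% of 17500 tested, and 130 and 368 without ABA + Glc replicate 3 (0.745% and 2.11%). Leaving out ABA replicate 3, which the study also left out, gave 127 and 302. Against Glc alone, 1019 genes were higher and 1078 lower, 5.82% and 6.16%, and without ABA + Glc replicate 3 957 and 1045 (5.48% and 5.99%). Scaling the libraries to the same sum gave 789 higher (4.51%) and 1580 lower (9.03%) than with Glc, so the balance of directions in that comparison depends on the scaling.

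Several of the genes that rose most with ABA + Glc stood lower than with ABA alone. *RD29A* averaged 46.0 ± 4.77 TPM in ABA + Glc seeds and 93.4 ± 11.1 TPM in ABA seeds (SD, n = 4 each), a difference of -1.01 ± 0.16 on the log2 scale (adjusted p = 0.00106). *LTI65* averaged 186 ± 12.2 TPM with ABA + Glc and 367 ± 27.1 TPM with ABA (-0.98 ± 0.12, adjusted p = 0.000178). *COR413PM1* stood at 43.1 ± 7.83 TPM with ABA + Glc and 111 ± 5.02 TPM with ABA (-1.37 ± 0.16). *RAB18* averaged 631 ± 64.3 TPM with ABA + Glc and 1206 ± 66.7 TPM with ABA (-0.94 ± 0.21, adjusted p = 0.017). Of the LEA list 6 of 13 were lower with ABA + Glc than with ABA and 0 higher, of the dehydrins 4 of 10 and 0, and of the phosphatases 4 of 8 and 0. *EM1* (-0.55 ± 0.19, adjusted p = 0.122) and *EM6* (-0.54 ± 0.19, adjusted p = 0.129) did not pass. All 13 LEA genes tested of the list were higher with ABA + Glc than with Glc.

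Sugar and starvation genes differed in their place between the single treatments. *DIN6* averaged 1.38 ± 0.33 TPM with ABA + Glc, 3.79 ± 0.16 TPM with ABA, 0.84 ± 0.20 TPM with Glc and 0.59 ± 0.19 TPM in the control. It was lower with ABA + Glc than with ABA (-1.21 ± 0.17, adjusted p = 0.000383), and its difference from Glc did not pass (0.49 ± 0.17, adjusted p = 0.0583). *STP13* averaged 7.88 ± 1.35 TPM with ABA + Glc, 13.9 ± 1.19 TPM with ABA and 6.90 ± 0.53 TPM with Glc, and was lower than with ABA (-0.79 ± 0.11). *STP1* (-0.17 ± 0.11) and *STP4* (-0.04 ± 0.08) did not pass against ABA and were lower than with Glc (-0.67 ± 0.11 and -0.63 ± 0.08). *CYP707A1* averaged 18.4 ± 2.03 TPM with ABA + Glc and 36.9 ± 2.24 TPM with ABA (-0.99 ± 0.11), and 7.92 ± 1.29 TPM with Glc (1.17 ± 0.11).

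Some genes that fell were lower with the 2 agents together than with either one. *FLA9* averaged 4.25 ± 0.33 TPM with ABA + Glc, 8.73 ± 1.60 TPM with ABA (-0.94 ± 0.11, adjusted p = 0.000116) and 21.0 ± 1.48 TPM with Glc (-2.18 ± 0.11, adjusted p = 1.89e-10). *AGP21* averaged 1.66 ± 1.01 TPM with ABA + Glc, against 5.68 ± 0.99 TPM with ABA (-1.64 ± 0.26) and 5.20 ± 0.90 TPM with Glc (-1.53 ± 0.26). *XTH17* and *PER69* did likewise, at -1.09 ± 0.18 and -0.90 ± 0.11 against ABA and -1.92 ± 0.18 and -1.48 ± 0.11 against Glc. Of the 20 xyloglucan endotransglucosylase genes 7 were lower than with ABA and 1 higher, and 13 were lower than with Glc and 1 higher. In contrast, of 12 3-ketoacyl-CoA synthase genes 8 were lower than with Glc, but 0 were lower and 0 higher than with ABA (median 0.04). Of 13 expansins 6 were higher with ABA + Glc than with ABA, among them *EXPA8* at 233 ± 23.8 TPM with ABA + Glc and 152 ± 5.26 TPM with ABA (0.60 ± 0.07), and 7 were lower than with Glc. *ADPG2* averaged 21.7 ± 1.31 TPM with ABA + Glc and 12.4 ± 1.52 TPM with ABA (0.79 ± 0.09, adjusted p = 5.8e-05).

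**Figure D5:**
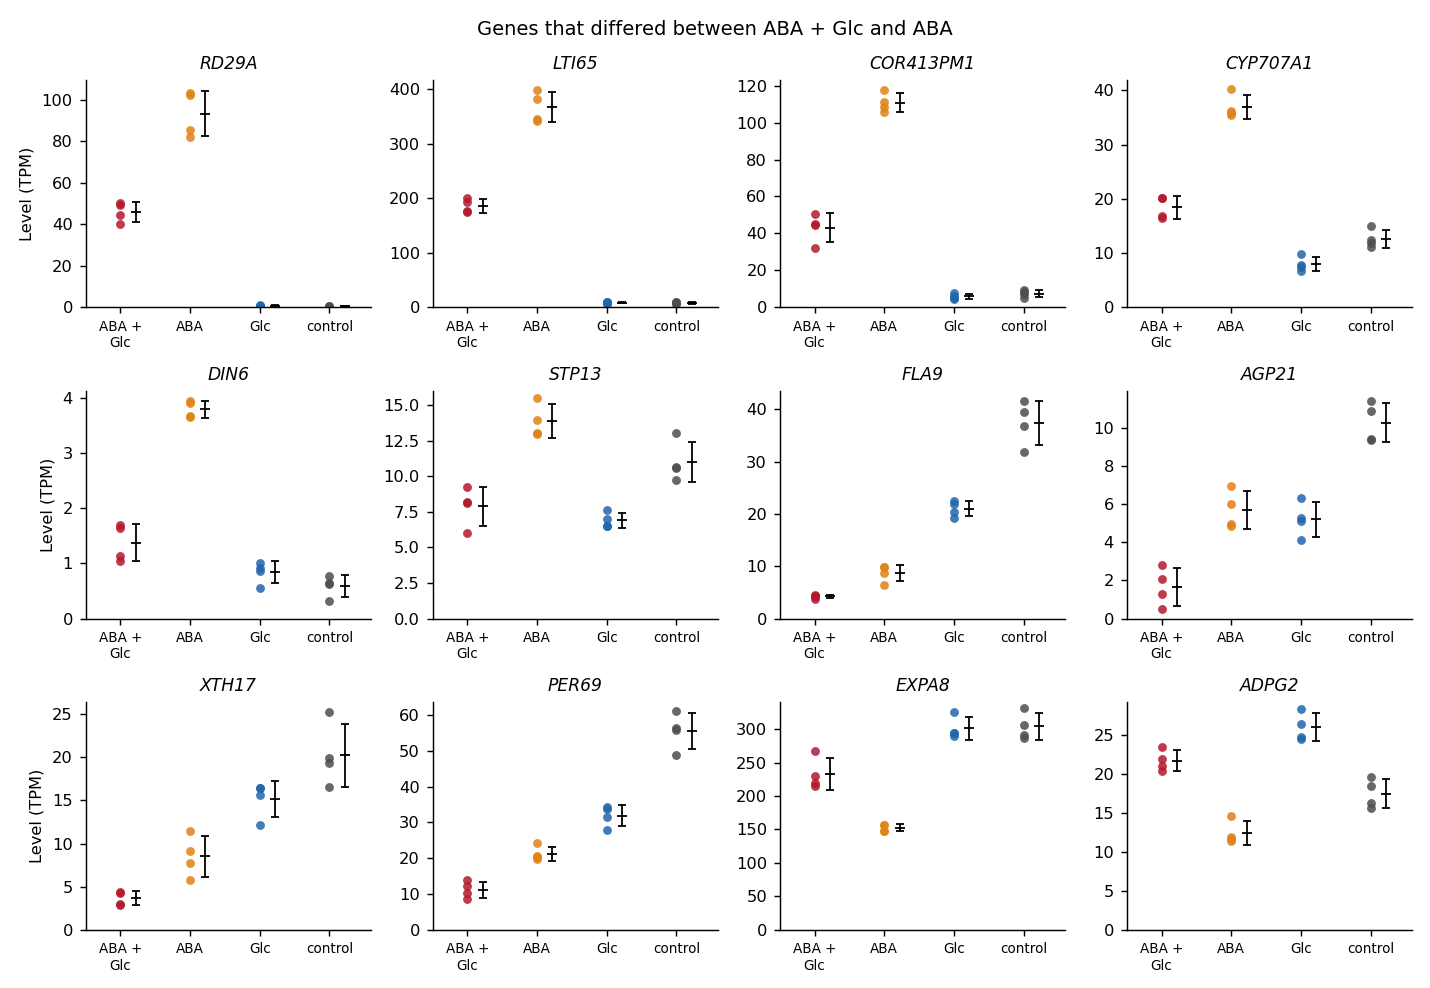
Level in TPM of 12 genes that differed between ABA + Glc and ABA in the model of 16 libraries, in ABA + Glc, ABA, Glc and control seeds. Points are the 4 libraries of each treatment, with mean and SD beside them. *EXPA8* and *ADPG2* stand higher with ABA + Glc than with ABA, and the other 10 stand lower.

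None of the 10 genes with the highest levels passed in limma, with adjusted p values of 0.316 or more. *EF1A* (AT5G60390), elongation factor 1-alpha, held 5174, 4962, 3540.0 and 5073 TPM in ABA + Glc libraries and 4943, 5082, 5163 and 5098 TPM in control libraries, and *RPL19A* (AT1G02780), a protein of the large ribosomal subunit, 3239, 3205, 3895 and 3242 TPM with ABA + Glc and 3179, 3095, 3251 and 2996 TPM in the control. Over the 10 genes the log2 fold changes were -0.56 to 0.16. Together they took 6.76% to 8.23% of the sum in ABA + Glc libraries and 7.43% to 8.39% in control libraries. ABA + Glc replicate 3 was the odd one for several. *AT2G01021*, the most abundant gene, held 17012, 16424, 4754 and 27092 TPM with ABA + Glc and 17925, 23159, 19200.5 and 21508 TPM in the control, and *CWLP* (AT3G22120), annotated as a cell wall-plasma membrane linker protein, 4781, 5307, 10328 and 4894 TPM with ABA + Glc and 5529, 5445, 5721 and 5086 TPM in the control.

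The genes in which ABA + Glc replicate 3 lay farthest from the other 3 libraries of its group are given as a description, without a test. *AT3G26512* held 0.01, 0, 47.4 and 0 TPM in ABA + Glc libraries and 3.23, 0, 0 and 2.91 TPM in control libraries, and *AT1G21313* 3.26, 0, 47.9 and 0 TPM with ABA + Glc and 0, 6.03, 0 and 0 TPM in the control. *AT1G12830* held 0.01, 4.23, 58.7 and 2.46 TPM with ABA + Glc against 18.9, 4.77, 14.04 and 0 TPM in the control. In the other direction *MT1A* (AT1G07600), a metallothionein, held 0, 23.9, 0 and 48.6 TPM with ABA + Glc and 0, 0, 0 and 0 TPM in the control, and the plastid gene *PSBL* (ATCG00560), of photosystem II, 23.9, 24.4, 4.17 and 62.7 TPM with ABA + Glc and 44.8, 12.5, 49.9 and 25.8 TPM in the control. All 5 varied among the other ABA + Glc or control libraries too, and *MT1A*, *AT3G26512* and *AT1G21313* were below the filter on low values.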

How the data were processed

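RNA from whole germinating *sweet1* seed was sequenced as paired-end mRNA libraries in 4 replicates per treatment. Per the labels and methods, the authors used Trimmomatic 0.38 for trimming, kallisto 0.44.0 against primary transcripts for quantification, and sleuth for their own comparisons. The deposited value per gene carries the header TPM, but libraries do not sum to 1000000, so it was recorded as a score scaled by the authors in a way not given in the sources used here, and no counts or depth were recovered. Genes above 0.5 TPM in at least 50% of libraries were tested on log2(TPM + 0.5) with limma 3.58.1 in R 4.3.3, with a variance trend and Benjamini-Hochberg adjustment over all genes tested. Calls were made at an adjusted p under 0.05 with a minimum change of 0.289 on the log2 scale, which is the 0.2 on the natural log scale that the study used. ABA + Glc against control used 8 libraries, and the comparisons with ABA and with Glc a model of 4 group means over 16 libraries. The tests were checked on simulated data. Genes were named by rule: the 12 largest rises and falls whose groups did not overlap and whose higher group averaged 10 TPM or more, up to 4 passing members per gene list with members that went against it, genes the study discusses, the 10 most abundant genes, and 10 genes by the deviation of ABA + Glc replicate 3. The genes and lists were chosen with earlier results of these data known. Lists matched by symbol leave out genes of another product that share one, such as the aconitases among *ACO* genes. Errors after ± are SD for levels and SE for log2 fold changes. Promoters came from RefSeq TAIR10.1. The alternatives were each library left out, a replicate block, other pseudocounts, filters and scaling, other sets of libraries, no trend and no minimum fold. Columns of values left unused numbered 0.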

Additional observations from a re-analysis of the deposited data

Results flagged for a closer look

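Single libraries stood away from the other 3 of their group for some of the genes named above, by the gap to the nearest library as a share of the group's range. Of 289 groups of 4 looked at, 23 held such a gap, and chance gives one in about 1 of 20. *AT3G26512*, *AT1G21313*, *AT1G12830* and *TPPI* were named for how far ABA + Glc replicate 3 lay from the others, so its gaps there were set by that choice. ABA + Glc replicate 3 was high for *CWLP* (10328.4 TPM), *RPL19A* (3895 TPM), *RPS8A* (4247 TPM), *DREB2E* (17.7 TPM), *GA3OX2* (55.8 TPM), *AT3G26512* (47.4 TPM), *AT1G21313* (47.9 TPM), *AT1G12830* (58.7 TPM) and *TPPI* (4197 TPM). It was low for *EF1A* (3540.0 TPM) and *RGL2* (141 TPM).

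Among the other ABA + Glc libraries, replicate 1 stood out for *PYL13* (19.0 TPM), replicate 2 for *TIP3-2* (27.3 TPM) and replicate 4 for *AT2G42560* (261 TPM), *PYL5* (53.4 TPM) and *DRM2* (8.10 TPM). Among the controls, replicate 1 stood out for *SMR5* (9.39 TPM), *EEL* (5.52 TPM), *LHCB3* (12.3 TPM) and *WRKY18* (63.3 TPM), replicate 2 for *LTPG2* (83.5 TPM) and *AT1G21313* (6.03 TPM), and replicate 3 for *CRA1* (212 TPM).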

How the results depend on the processing

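The counts for ABA + Glc against control stayed within 1.5 times of 1148 risen and 1568 fallen under every alternative but 1. With only genes above 10 TPM in at least 50% of libraries (10497 tested), 788 rose and 887 fell, where fewer genes were tested, and the same filter left 572 genes lower with ABA + Glc than with Glc. Leaving out each library in turn gave 931 to 1147 risen and 1182 to 1741 fallen, 114 to 202 higher and 259 to 368 lower against ABA, and 892 to 1011 higher and 903 to 1056 lower against Glc. The replicate block gave 1068 risen and 1398 fallen. Libraries with the same number showed no common deviation, with correlations of -0.062 to 0.013 over 4 pairs against -0.108 to 0.094 for other pairs. So few pairs cannot show whether libraries with the same number shared a seed batch, and the main fit used no pairing. Scaling to the same sum gave 971 and 1800 against control, and 221 and 323 against ABA. For 267 named genes tested, 4652 gene and setting pairs were compared. Of these 4452 kept their call or its absence, 194 lost a call and 6 gained one. Direction was compared only for genes called in the main fit or the alternative, and 0 such pairs were reversed. A gene called in neither could change sign and still count as kept. The depth of each value is unknown, so no floor can be set for low genes, and 4 libraries per treatment of 1 mutant line limit what the p-values cover.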
